A study of Mus musculus with 22 samples.

Results

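Rgcc, Scn2b, Angpt2, Kif26b, Nr2e3, Tenm4 and Rbms3 are 7 of the 24421 genes counted in sorted cells of the mouse colon crypt. They were chosen on measured values, namely levels higher in stem cells than in both progenitor populations, and are less familiar in the crypt than markers such as Lgr5. All 7 passed the filter on low counts. RNA was sequenced in 22 libraries of untreated wild type male C57BL/6N mice, aged 5 to 7 weeks. Stem cells (Stem) had 3 libraries, absorptive progenitors (AbsPro) 3, and secretory progenitors with deep crypt secretory and goblet cells (SecPDG) 4. Of the mature types, tuft cells had 5, enterocytes 5 and enteroendocrine cells (EECs) 2. All cells were live, Epcam+ and negative for Cd31 and Cd45. Stem cells were sorted as Cd44highest with Cd24low and no Ckit, AbsPro as Cd44med/hi with Cd24low and no Ckit, and SecPDG as Cd44hi with Cd24med and Ckitmed. Tuft cells were sorted as Ckit+ and Cd24hi, enterocytes as Cd44low/- and Cd24-, and EECs as Cd44low/- and Cd24+. By the study's methods each stem cell and AbsPro library came from a single mouse, and each library of the other cell types pooled mice. Sorts were pooled where cells were few. Pooling of mice thus went with cell type, and the 2 cannot be told apart. Since each library is a bulk sample, fewer cells of a type and less RNA per cell cannot be told apart.

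Stem cells at the base of the colon crypt divide throughout life, and their daughters commit either to the absorptive or to the secretory lineage before they mature. Wnt signals hold the stem state, and genes such as Lgr5 mark it. The 7 genes come from unrelated families. Rgcc is a cell cycle regulator that binds the mitotic kinase Cdk1, Scn2b is an accessory subunit of voltage-gated sodium channels, and Angpt2 is a secreted ligand of the receptor Tek. Kif26b is a kinesin-like protein of the Wnt5a-Ror pathway, Nr2e3 an orphan nuclear receptor best known from photoreceptors, Tenm4 a large teneurin of the cell surface, and Rbms3 an RNA-binding protein.

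Reads counted on genes came to 15314543 to 22462518 in libraries of stem cells and progenitors, and to 4122122 to 20892532 in those of mature cells. Other reads were assigned to no gene feature. Their share of these reads and those counted on genes was 41.3% to 49.8% in the former and 43.9% to 89.9% in the latter. Background was estimated from 1510 olfactory, vomeronasal and trace amine receptor and keratin-associated protein genes, families taken here as silent. None was left out for its level, so true expression of any of them, which was not tested, would count as background. Per kilobase of exon it was 0.0957 to 1.11 reads in stem cells and progenitors. Mature cells had more, with 1.59 to 6.21 for tuft cells, 4.26 to 11.9 for enterocytes and 3.47 to 12.4 for EECs. A share of a level called background below is this rate times the exon length of the gene. Summed stem cell markers (8 genes) were highest in stem cells, at 22666 to 28541 normalized counts, and lay at 13140.4 to 19744 in tuft cells against 2371 to 5113 in enterocytes and EECs. Summed tuft markers (5 genes) reached 25025 to 67216 in tuft cells, and 8101 at most elsewhere. The 5 tuft libraries also held summed goblet and deep crypt secretory markers (7 genes) at 633813 to 1253740.0, overlapping the 652222 to 1719120.0 of SecPDG. Enteroendocrine markers (7 genes) summed to 631532 to 1811870.0 in EECs and to 34514 at most elsewhere. Absorptive markers (6 genes) summed to 71026 to 108573 in AbsPro and 53164 to 79456 in enterocytes. They summed to 23297 in EEC 1 and to 142833 in EEC 2, above every AbsPro and enterocyte library. In stem cells, SecPDG and tuft cells they reached 24341, 19885 and 17171 at most.

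The genes lie on 5 chromosomes of the mm10 genome (GRCm38), and 3 of them, Scn2b, Nr2e3 and Rbms3, are on chromosome 9. Scn2b (ENSMUSG00000070304) spans chr9:45117782-45130070 on the plus strand, Nr2e3 (ENSMUSG00000032292) chr9:59942771-59960659 on the minus strand and Rbms3 (ENSMUSG00000039607) chr9:116572746-117629913 on the minus strand. Kif26b (ENSMUSG00000026494) lies at chr1:178529125-178939200 and Tenm4 (ENSMUSG00000048078) at chr7:96171246-96911093, both on the plus strand. Angpt2 (ENSMUSG00000031465) lies at chr8:18690263-18741562 and Rgcc (ENSMUSG00000022018) at chr14:79288756-79301645, both on the minus strand. Exon lengths ran from 918 bases in Rgcc to 13749 in Kif26b and 14047 in Tenm4. Reads were counted without regard to strand, and 2 genes overlap exons of a noncoding transcript on the other strand, Kif26b by 909 bases of Gm16564 and Tenm4 by 988 bases of C230038L03Rik, so reads of these stretches cannot be assigned to 1 strand.

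Promoters of 6 of the 7 genes (all but Angpt2), 8 in number, were matched in RefSeq on GRCm38.p6, from 250 bases before to 50 bases after the start of transcription. They were searched on both strands for a TCF/LEF motif (CTTTGAT), through which Wnt signals act, the cell cycle element CHR (TTTGAA) and the Myc E-box (CACGTG), and no match of 1 motif overlapped a match of another. The TCF/LEF letters stood in 1 of the 8 promoters, that of Rbms3, and in 3.73% of 32851 promoters of the same length. The CHR letters stood in the promoters of Kif26b and Scn2b and in 17.9% of all, and the E-box in none of the 8 and in 7.15% of all. With 8 promoters nothing is read from these counts. The windows around the matches are shown with the motif in capitals, 5′ to 3′ on the strand of the gene.
Rbms3, minus strand, chr9:117630136-117630163: cacaattagCTTTGATcttataaagaaa
Kif26b, plus strand, chr1:178529105-178529133: gggagaatttcTTTGAActcagttagcga
Scn2b, plus strand, chr9:45117626-45117646: attTTCAAAgtctaaaaatca
Scn2b, plus strand, chr9:45117637-45117665: ctaaaaatcatTTCAAAtgcagtaggaag
Scn2b, plus strand, chr9:45117896-45117924: ttgcatatgtcTTTGAAgtacatccgtgc
The matches begin 241 bases before the start in Rbms3, 9 before it in Kif26b, and 247 before, 228 before and 32 after it in Scn2b, where the first 2 read on the opposite strand. A match says only that these letters are present.

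Rgcc, named for its part in the cell cycle, was the most abundant of the genes in stem cells per kilobase of exon, at 1778 ± 515 normalized counts per kilobase (SD, n = 3). Its normalized count was 1086, 1889 and 1922 in Stem 1 to 3 and 476, 362 and 400.4 in AbsPro 1 to 3. In SecPDG 1 to 4 it was 585, 317, 307 and 672. Every stem cell library thus lay above every progenitor library, and the 2 progenitor types overlapped. In Tuft 1 to 5 the count was 202, 232, 235, 219 and 557, in Enterocyte 1 to 5 94.3, 71.5, 129, 82.0 and 105, and in EEC 1 and 2 113 and 0. Tuft 5 stood above the other tuft libraries and within the range of SecPDG, and it was also the tuft library with the least background, 1.59 reads per kilobase. All tuft libraries lay above all enterocyte libraries. The 0 reads of EEC 2 allow up to 3 counts, or 3.85 normalized counts, so the mean of stem cells was at least 424-fold higher than that library. By mean the order ran from Stem (1633 ± 473, n = 3) through SecPDG (470.2 ± 186, n = 4), AbsPro (413 ± 58.2, n = 3), Tuft (289 ± 150.3, n = 5) and Enterocyte (96.5 ± 22.4, n = 5) to EEC (56.4 ± 79.7, n = 2). Of these neighbours, Stem and SecPDG and then Tuft and Enterocyte did not overlap, and the other 3 pairs did. Background made up 10.6% of the level in enterocytes and 22.9% in EECs.

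Scn2b codes for the beta-2 subunit, which modulates sodium channels and acts in adhesion. Its normalized count was 873, 553 and 959 in Stem 1 to 3, 83.6, 259.5 and 87.2 in AbsPro 1 to 3, and 279, 133, 224 and 269 in SecPDG 1 to 4. The lowest stem cell library lay above the highest library of all other cell types. The count was 319, 148, 207, 160.4 and 233 in Tuft 1 to 5, 63.4, 83.7, 109, 25.3 and 62.9 in Enterocyte 1 to 5, and 219.7 and 8.98 in EEC 1 and 2. Stem cells (795 ± 214) were 3.51 times the mean of SecPDG (226 ± 66.7), and below stem cells every pair of neighbours in the order SecPDG, Tuft, AbsPro, EEC and Enterocyte overlapped. Background made up 64.2% of the level in enterocytes and 48.7% in EECs, and EEC 2 lay below its own background.

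Angpt2 had the tightest stem cell values of the 7 genes, with a highest library 1.41 times the lowest. Its normalized count was 501, 560.1 and 708 in Stem 1 to 3, 205, 145 and 223 in AbsPro 1 to 3, and 155, 152, 183 and 186 in SecPDG 1 to 4. It was 113, 160.0, 238, 142 and 164 in Tuft 1 to 5, 107, 113, 148, 127 and 117 in Enterocyte 1 to 5, and 214 and 371 in EEC 1 and 2. The 3 stem cell libraries stood above all 19 others, EECs came second, and the remaining neighbours overlapped. Angpt2 is best known from blood vessels, and 8 markers of endothelial cells summed to 92.7 to 205 normalized counts for stem cells. The same sum was 70.5 to 227 for AbsPro, 132 to 385 for SecPDG, 394 to 1294 for tuft cells, 658 to 1961 for enterocytes and 1639.9 to 3303 for EECs. The endothelial marker Pecam1 was at 0.949 ± 1.64 in stem cells (n = 3) and at 653 to 774 in the 2 EEC libraries. Vwf, another of the 8, was at 120 ± 46.6 in stem cells, the bulk of their mean sum of 151. It was at 56.4 ± 45.6 in AbsPro, 162 ± 70.5 in SecPDG and 655 ± 144 in EECs. The part of endothelial cells in the Angpt2 levels was not tested.

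Kif26b was low in the progenitors and hard to read in mature cells. Its normalized count was 577, 364 and 318 in Stem 1 to 3, 70.9, 56.7 and 49.6 in AbsPro 1 to 3, and 25.0, 73.6, 81.9 and 92.1 in SecPDG 1 to 4. The difference of stem cells from AbsPro was 7.11-fold by the means (419.8 ± 138 against 59.1 ± 10.9, n = 3 each), without overlap. It was 102, 172, 203, 134 and 125 in Tuft 1 to 5, 263, 218, 233, 114 and 145 in Enterocyte 1 to 5, and 573 and 34.6 in EEC 1 and 2. With an exon length of 13749 bases, background made up 53.0%, 78.8% and 63.6% of the level in these 3 types. With background taken off, the means were 413 ± 137 in Stem, 51.2 ± 15.0 in AbsPro, 58.2 ± 29.6 in SecPDG, 69.1 ± 32.7 in Tuft, 41.3 ± 8.85 in Enterocyte and 111 ± 194 in EEC. Enterocytes then moved from the third place to the last. Before this step EEC 1 lay within the stem cell range and EEC 2 below it.

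Nr2e3 was at 235, 475 and 349.6 normalized counts in Stem 1 to 3, 41.1, 146 and 48.6 in AbsPro 1 to 3, and 91.9, 60.4, 63.2 and 111 in SecPDG 1 to 4. It was at 65.8, 180.0, 131, 55.9 and 122 in Tuft 1 to 5, 159, 49.7, 81.8, 26.5 and 36.6 in Enterocyte 1 to 5, and 273 and 29.5 in EEC 1 and 2. Only EEC 1 reached the range of the stem cell libraries. Stem cells had the highest mean (353 ± 119.9, n = 3), and the other 5 cell types, with means of 70.8 to 151, overlapped from neighbour to neighbour. AbsPro 2 stood above the other AbsPro libraries in Nr2e3 and in Scn2b, and it was the library with the least background of all, 0.0957 reads per kilobase.

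Tenm4, of a family of transmembrane proteins that bind latrophilins across cell contacts, went against the description as a gene highest in stem cells. It was at 1842, 852 and 1050.3 normalized counts in Stem 1 to 3, and at 2506 and 4703 in EEC 1 and 2. Both EEC libraries lay above every other library, with background at 5.48% of the level. It was at 493, 189.9 and 322 in AbsPro 1 to 3, and at 424, 413, 546 and 481 in SecPDG 1 to 4. In Tuft 1 to 5 it was at 1499, 552, 1261, 774 and 752, and in Enterocyte 1 to 5 at 481, 341, 595, 189 and 319. Means ran from EEC (3605 ± 1553, n = 2) through Stem (1248 ± 524, n = 3), Tuft (968 ± 395, n = 5), SecPDG (466 ± 61.2, n = 4) and Enterocyte (385 ± 156, n = 5) to AbsPro (335 ± 152, n = 3). Stem cells and tuft cells overlapped, tuft cells lay above SecPDG, and the last 3 types overlapped.

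By mean, Rbms3 was also highest in EECs, at 533 and 344 normalized counts in EEC 1 and 2. It was at 326, 93.4 and 224 in Stem 1 to 3, at 12.7, 3.44 and 64.4 in AbsPro 1 to 3, and at 0.999, 34.2, 74.8 and 95.2 in SecPDG 1 to 4. The lowest stem cell library thus fell just under the highest of SecPDG, the only overlap of stem cells with a progenitor among the genes. It was at 76.1, 153, 323, 164 and 171 in Tuft 1 to 5, a range that overlaps stem cells, and at 102, 145, 98.9, 78.3 and 48.3 in Enterocyte 1 to 5. Background made up 96.9% of the enterocyte level, which was 2.92 ± 31.5 once it was taken off (n = 5), so that Rbms3 was not detectable above background there. In EECs background made up 26.4% of the level. With it taken off, EEC 1 and 2 were at 339 and 307, and Stem 1 lay between them at 321. The highest stem cell library was 3.49 times the lowest, the widest ratio of the 7 genes.

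**Figure D1:**
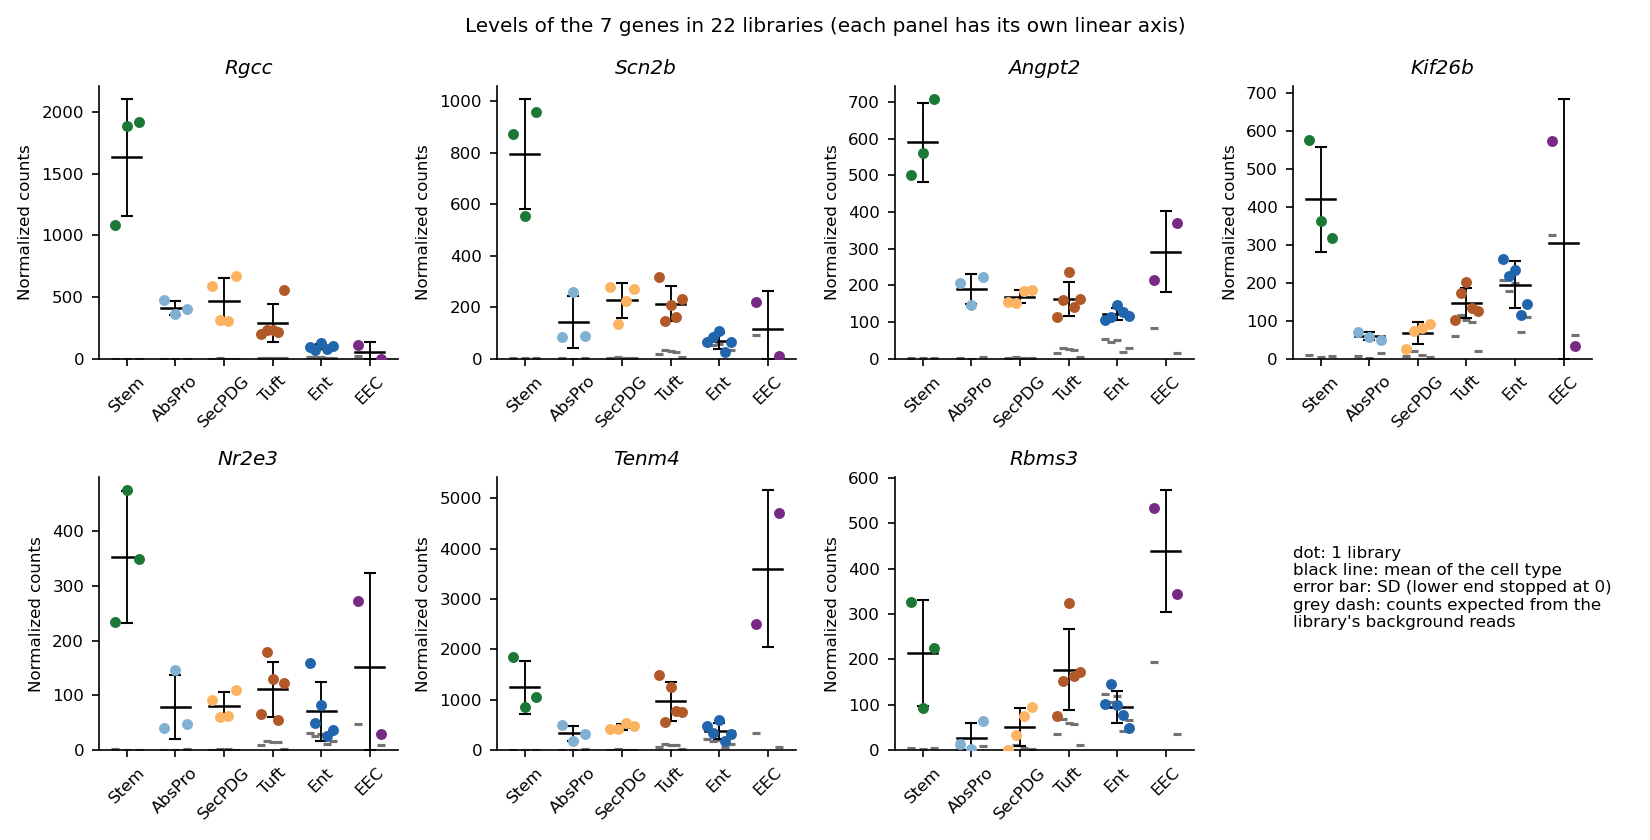
Normalized counts of the 7 genes in the 22 libraries, by cell type, with a linear axis from 0 for each gene. Dots are libraries, black lines are means with SD, and grey dashes are the counts expected from background. Stem cell dots stand above both progenitors in every panel but that of Rbms3, where the lowest of them (93.4) lies under the highest of SecPDG (95.2), and EECs are highest for Tenm4 and Rbms3.

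The contrasts with stem cells are given as descriptions, since the stem cell libraries helped to choose the genes. Log2 fold changes are from the edgeR fit of all libraries, with SE. In AbsPro against stem cells they ran from -1.63 ± 0.35 for Angpt2 to -3.09 ± 0.67 for Rbms3. A gene was called where its Benjamini-Hochberg adjusted p was below 0.01 and its average over all libraries reached 50 normalized counts. By this call 7 of 7 were lower in AbsPro, where 0.0922% of 22781 genes were, and in 7 of 7 all stem cell libraries lay above all AbsPro libraries, where 6.74% of genes did so. In SecPDG they ran from -1.41 ± 0.35 for Tenm4 to -2.62 ± 0.47 for Kif26b. There 6 of 7 were called lower (1.59% of genes) and 6 of 7 did not overlap (9.77%), with Rbms3, at -2.01 ± 0.54, just outside both. These were the contrasts that chose the genes, so nothing is read from the counts. Across the genome 8 genes were called lower in both progenitors. They were 6 of the 7 genes, the stem cell marker Lgr5 and the sort marker Cd44. The genes were chosen on these contrasts, so nothing is read from their place in this list either. With DESeq2 3 of 7 were called in AbsPro. The study's own DESeq2 list of genes enriched in stem cells over all other cell types, a different comparison, is longer and includes Axin2, Rnf43 and Notch1. Against the 2 progenitors alone the study added further genes.

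In tuft cells 5 of 7 were called lower than in stem cells (4.24% of genes), and the same 5, all but Tenm4 and Rbms3, did not overlap (10.8%). Tenm4 was at -0.37 ± 0.32 and Rbms3 at -0.26 ± 0.43 there, and both came out slightly above 0 without Stem 1 (0.02 and 0.16). In enterocytes 5 of 7 were called lower (11.5%), all but Kif26b at -1.11 ± 0.39 and Rbms3 at -1.14 ± 0.48, and 6 of 7 did not overlap (15.2%). In EECs 2 of 7, Rgcc and Scn2b, were called lower (9.13%), 1 of 7, Tenm4, was called higher (11.3%), and 3 of 7 lay wholly below stem cells (20.8%). Rgcc ran from -1.79 ± 0.33 in SecPDG to -4.08 ± 0.38 in enterocytes and -5.13 ± 0.65 in EECs. Kif26b in EECs, at -0.61 ± 0.52, turned to 0.19 with RLE size factors, to 0.65 with DESeq2 and to 0.45 without EEC 2. The scaling moved all genes together here. Over genes averaging 50 normalized counts or more, the median log2 fold change under TMM was -0.28 for enterocytes and -0.29 for EECs. Under RLE size factors it was 0.34 and 0.47, and under library totals 0.24 and 0.14. Relative to that median, Kif26b in EECs stood at -0.33, -0.29 and -0.23 under the 3 scalings, Tenm4 at 1.83, 1.71 and 1.77, and Rgcc at -4.85, -4.96 and -4.98.

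**Figure D2:**
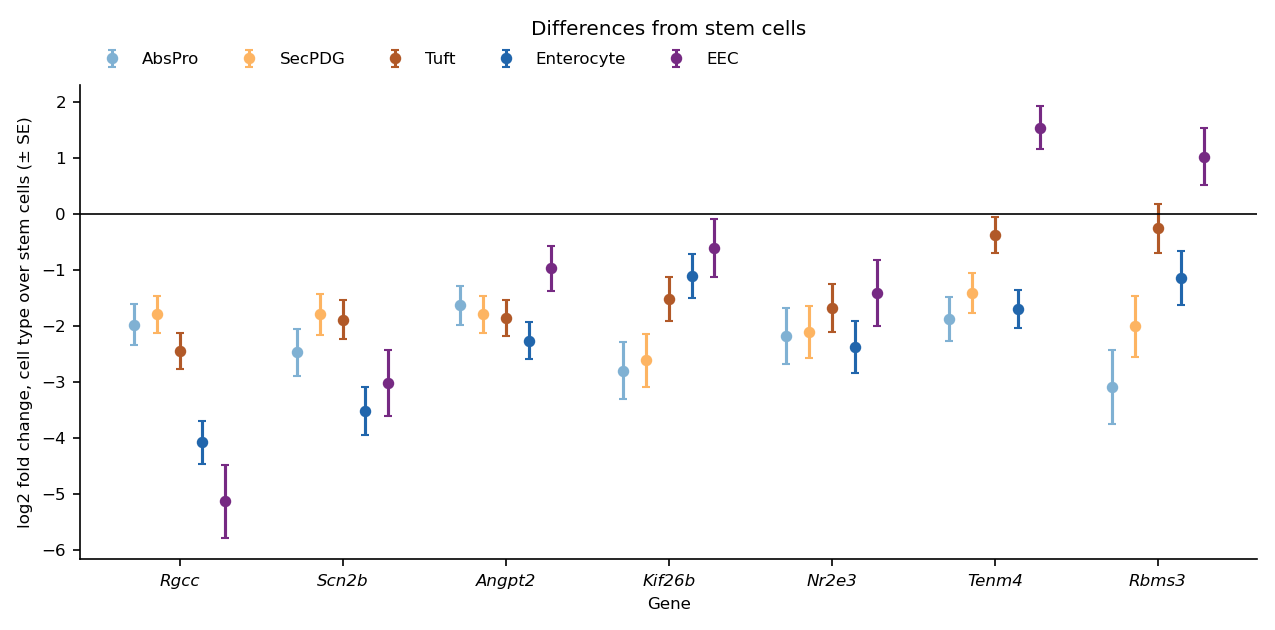
Log2 fold changes of 5 cell types over stem cells for the 7 genes, from edgeR, with bars of 1 SE; the line at 0 is the level of stem cells. AbsPro and SecPDG lie below 0 for all genes, and EECs lie above it for Tenm4 (1.54) and Rbms3 (1.02) alone.

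By the rule stated for the choice of the genes, mature cell types took no part in it. Differences among these types were therefore tested, by edgeR's quasi-likelihood F test with Benjamini-Hochberg adjustment over 22781 genes. Earlier results of these data were known when the genes were chosen. Tenm4 told all 3 types apart. By edgeR it was higher in tuft cells than in enterocytes (log2 fold change 1.33 ± 0.32, adjusted p = 0.00181), and lower in tuft cells than in EECs (-1.91 ± 0.35, adjusted p = 3.2e-05) and in enterocytes than in EECs (-3.24 ± 0.36, adjusted p = 5.95e-10). By edgeR, Rgcc was higher in tuft cells than in enterocytes (1.63 ± 0.41, adjusted p = 0.00331) and than in EECs (2.68 ± 0.72, adjusted p = 0.00498). Rbms3 was lower in enterocytes than in EECs (-2.17 ± 0.53, edgeR adjusted p = 0.00387). The libraries of both groups did not overlap in 5 of these 6 differences, and they overlapped for Tenm4 between tuft cells and enterocytes. The share of all genes without overlap was not computed for these comparisons, so nothing is read from that count. Between tuft cells and enterocytes 2 of 7 were called higher in tuft cells, against 5.79% of genes, and 0 lower, against 2.66% (3 and 0 at an unadjusted p under 0.05 by edgeR, and no call with DESeq2). Between tuft cells and EECs 1 of 7 was called higher (4.55%) and 1 lower (4.82%) in tuft cells. Between enterocytes and EECs 0 were called higher (1.26%) and 2 lower (3.45%) in enterocytes, with 0 and 3 at an unadjusted p under 0.05 by edgeR.

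The 2 differences of Tenm4 from EECs held under all 32 alternatives, with adjusted p of 1.01e-05 to 0.00783 for tuft cells and 1.28e-10 to 9e-04 for enterocytes. The others did not. The edgeR adjusted p of Rgcc in tuft cells over enterocytes was 0.0639 without Tuft 5 and 0.0159 without Enterocyte 2, in a range of 1.17e-04 to 0.143 over the alternatives. Rgcc in tuft cells over EECs went to 2.25 (edgeR adjusted p = 0.024) without Tuft 5 and to 1.41 (adjusted p = 0.139) without EEC 2, in a range of 1.81e-04 to 0.186. Tenm4 in tuft cells over enterocytes went to 1.12 (edgeR adjusted p = 0.016) without Tuft 1, with a range of 1.14e-04 to 0.0802. Rbms3 in enterocytes against EECs went to -1.84 (edgeR adjusted p = 0.0446) without EEC 1, to -2.10 (adjusted p = 0.0119) without Enterocyte 4 and to -2.01 (adjusted p = 0.0123) without Enterocyte 5, with a range of 3.1e-04 to 0.132. Sums of stem cell and goblet markers were both higher in every tuft library than in every enterocyte library and their part in the differences of Rgcc and Tenm4 was not tested.

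The remaining genes did not pass among mature cells. Scn2b in tuft cells over enterocytes was just outside the threshold (1.63 ± 0.47, edgeR adjusted p = 0.0105), with an adjusted p of 9.58e-04 to 0.165 over the alternatives, and it passed in 13 of 32. One of these took off background, which gave 2.67. Angpt2 lay at -1.29 ± 0.45 in enterocytes against EECs (95% interval -2.17 to -0.42, edgeR adjusted p = 0.0582), and DESeq2 called it there and in tuft cells against EECs. For Kif26b the 95% interval was -1.24 to 0.41 in tuft cells over enterocytes, -1.97 to 0.16 in tuft cells over EECs and -1.54 to 0.55 in enterocytes over EECs. For Nr2e3 the intervals were -0.35 to 1.74, -1.56 to 1.02 and -2.36 to 0.43. Several of these comparisons with EECs turned with EEC 1, the library with 89.9% of reads on no gene feature. Without it Kif26b stood at 2.21 in tuft cells over EECs and 2.49 in enterocytes over EECs, Nr2e3 at 2.05 and 1.21, and Scn2b at 2.93 in enterocytes over EECs, none past the threshold. Scn2b in tuft cells over EECs passed without EEC 1 (4.70, edgeR adjusted p = 0.00508) and lay at -0.03 without EEC 2, where Kif26b passed in tuft cells against EECs (-1.97, adjusted p = 0.00208).

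**Figure D3:**
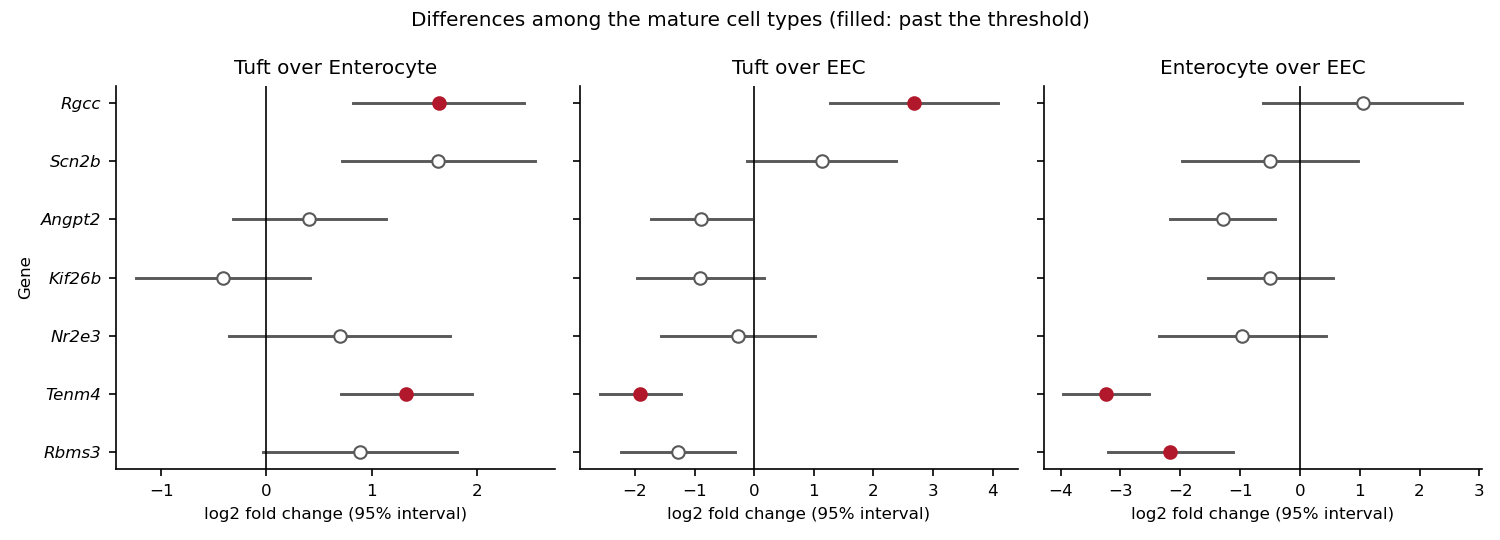
Log2 fold changes of the 7 genes among tuft cells, enterocytes and EECs with 95% intervals, and filled points for those past the threshold. Tenm4 is filled in all 3 panels, Rgcc in both panels with tuft cells, and Rbms3 in enterocytes against EECs.

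Background bore unevenly on the genes. Its share stayed at 0.0273% to 1.86% in stem cells for all 7 genes and at 17.4% or less in the progenitors. In tuft cells it was 1.80% for Rgcc and 53.0% for Kif26b, and in enterocytes 10.6% for Rgcc and 96.9% for Rbms3. Taking it off left stem cells first by mean for Rgcc, Scn2b, Angpt2, Kif26b and Nr2e3 and EECs first for Tenm4 and Rbms3, as before. For Rbms3 the EEC libraries then overlapped those of stem cells. Per kilobase of exon the stem cell levels of the genes spanned 1778 ± 515 for Rgcc, 201 ± 54.1 for Scn2b, 173 ± 58.8 for Nr2e3, 166 for Angpt2, 88.9 ± 37.3 for Tenm4, 30.5 ± 10.1 for Kif26b and 26.1 ± 14.2 for Rbms3 (SD, n = 3). Scn2b, Nr2e3 and Angpt2 did not differ beyond their spread on this scale, nor did Kif26b and Rbms3.

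**Figure D4:**
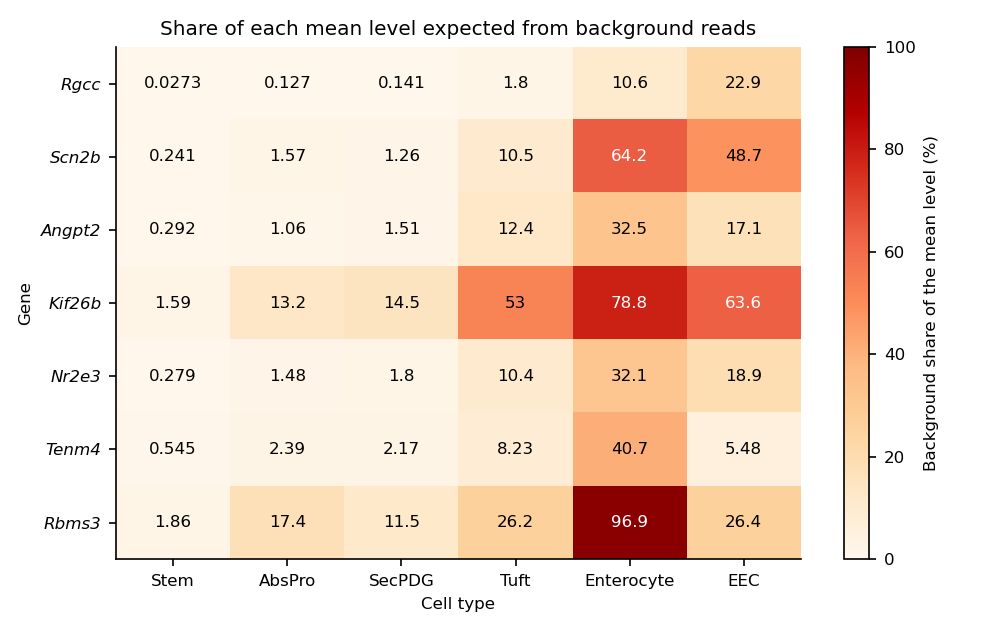
Share of the mean level of each gene (rows) that background accounts for in each cell type (columns), in percent, with a darker colour for a larger share. Shares are under 2% in stem cells and reach 78.8% for Kif26b and 96.9% for Rbms3 in enterocytes.

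The genes did not vary as a block across libraries. Over the 22 libraries, which share depth and background between genes, the 21 pairs of genes had a Pearson correlation of log2 CPM (counts scaled to library size) of -0.263 to 0.859, with a median of 0.353, and 18 were positive. These include the libraries that chose the genes. Over the 12 mature libraries alone the correlations were -0.541 to 0.850, with a median of 0.234, and 15 were positive. Among 13381 genes averaging 50 normalized counts or more, the patterns most like that of Rgcc were those of Hells (r = 0.955), a chromatin remodeller, the ephrin Efna4 (0.942) and Dtl (0.941), a replication licensing regulator. Scn2b was most like Dtl (0.911), Phgdh (0.901), an enzyme of serine synthesis, and Pole (0.901), the catalytic subunit of DNA polymerase epsilon. Angpt2 was most like the laminin chain Lamc1 (0.839), Cep250 (0.814), which holds centrosomes together, and the transcription factor Bcl11a (0.806). Kif26b was nearest to the zinc transporter Slc30a2 (0.873), Adamts16 (0.857) and Ppp1r1a (0.855), and Nr2e3 to the Wnt receptor Fzd2 (0.811), Smpdl3b (0.795) and the neurotrophin receptor Ntrk2 (0.787). Tenm4 was nearest to Pitpnm2 (0.895), the semaphorin receptor Plxnb1 (0.885) and the Wnt receptor Fzd3 (0.861), and Rbms3 to Trim45 (0.871), Zfp28 (0.861) and the transcription factor Arnt2 (0.850). The levels show what the values of r rest on. Hells was at 1998 in stem cells, 806 in AbsPro and 102 in EECs by mean normalized count, in the order of Rgcc, while Pitpnm2 was at 321 in stem cells and 1429 in EECs, as Tenm4 was highest in EECs.

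Families and pathways of the genes, 72 genes in 7 lists without the 7 genes themselves, were tested in the same fit. In AbsPro 0 of the 72 were called higher than in stem cells, against 0.496% of genes, and 0 lower, while DESeq2 called 2 of them. At an unadjusted p under 0.05 edgeR had 3 higher and 8 lower there. In SecPDG 2 were called higher (3.39% of genes) and 2 lower (1.59%), and in tuft cells 13 higher (8.07%) and 6 lower (4.24%). In enterocytes 21 were called higher (11.3%) and 17 lower (11.5%), and in EECs 21 higher (11.3%) and 12 lower (9.13%). The 2 lower in SecPDG were Flrt2, a partner of latrophilins, and Rbms1, and the 2 higher were Celsr1, a cadherin of planar polarity, and the mitotic kinase Plk1.

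The cell cycle list around Rgcc (10 genes) had 3 genes called lower for tuft cells (4.24% of all genes), 7 for enterocytes (11.5%) and 8 for EECs (9.13%). None was called higher there, and the median log2 fold changes were -0.44, -1.67 and -2.13. Cdk1, the kinase that Rgcc binds, was at 924 ± 113 normalized counts in stem cells and 601 ± 109.5 in tuft cells. It was at 188 ± 34.2 in enterocytes and 69.8 ± 66.1 in EECs, where background made up 88.1% of it. By edgeR it fell in enterocytes (-2.29 ± 0.33, adjusted p = 2.26e-07) and EECs (-3.90 ± 0.58, adjusted p = 3.45e-07). Ccnb2, a cyclin of mitosis, fell in all 3 mature types, most in EECs (-4.90 ± 0.61, edgeR adjusted p = 4.87e-09). Trp53, a tumour suppressor known to induce Rgcc, fell in tuft cells (-1.80 ± 0.28, edgeR adjusted p = 2.35e-06), enterocytes (-2.85 ± 0.30, adjusted p = 1.52e-10) and EECs (-2.44 ± 0.42, adjusted p = 5.19e-06), and Aurkb in enterocytes (-2.69 ± 0.38) and EECs (-2.80 ± 0.57).

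Genes called among the relatives of Scn2b and of Tenm4 were higher, not lower, in mature cells. Of 12 other sodium channel subunits, 7 were called higher for tuft cells (8.07% of all genes), 10 for enterocytes (11.3%) and 9 for EECs (11.3%), and none lower in any cell type. Their median log2 fold changes were 3.32, 4.29 and 5.61. Neuron and glia markers (7 genes) summed to 50.1 to 135 normalized counts for stem cells, 79.6 to 269 for tuft cells and 217 to 660.5 for enterocytes, with EEC 1 at 1064 and EEC 2 at 117. Background expected for that sum averaged 127 for tuft cells, 250.2 for enterocytes and 315 for EECs, and the part of these markers in the sodium channel counts was not tested. Scn3a reached 3703 ± 3721 normalized counts in EECs against 42.7 ± 65.5 in stem cells (6.56 ± 0.63, edgeR adjusted p = 1.27e-12), with background at 3.25% of the EEC level. Scn8a, Scn11a and Scn4a were called higher in all 3 mature types, and background made up 26.7% to 43.5% of their level in tuft cells and 23.6% to 37.5% in enterocytes. Among the other teneurins with latrophilins and Flrt proteins (9 genes), 2 were called higher for tuft cells (8.07% of all genes), 5 for enterocytes (11.3%) and 5 for EECs (11.3%). Adgrl1, a latrophilin, was at 2593 ± 2032 in EECs against 325 ± 57.8 in stem cells (3.02 ± 0.41, edgeR adjusted p = 3.58e-08) and was not called in any other cell type. Tenm3 was called higher in all 3 mature types (6.76 ± 0.91 in EECs), as was Tenm2, and Flrt1 in enterocytes and EECs, with background at 34.1% to 67.7% of their enterocyte levels. Tenm2 was at 14.1 and 516 in the 2 EEC libraries, against 18.6 to 22.1 in stem cells, with background at 46.0% of its EEC mean.

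Tek, the receptor of Angpt2, was at 1.76 ± 1.54 normalized counts in stem cells. It was called higher in tuft cells (161 ± 49.6), enterocytes (137 ± 43.7) and EECs (128 ± 113). Background made up 16.6%, 38.2% and 51.4% of its level there. Endothelial marker sums were also higher in these types, as given above, and Tek and Tie1 are themselves among the 8 markers summed. Of 10 genes in the angiopoietin list, 1 was called higher in tuft cells (8.07% of all genes), 2 in enterocytes (11.3%) and 4 in EECs (11.3%). None was called lower. The 4 in EECs were Tek, Tie1, Angptl2 (516 ± 197 against 23.0 ± 14.1 in stem cells) and Angptl7. Tie1 was at 12.8 and 399 in the 2 EEC libraries, against 0 to 28.3 in stem cells. Of 18 Wnt5a-Ror and planar polarity genes, 3 were called higher (8.07% of all genes) and 0 lower (4.24%) in tuft cells. In enterocytes 4 were called higher (11.3%) and 5 lower (11.5%), and in EECs 3 higher (11.3%) and 1 lower (9.13%). Kif26a, the paralog of Kif26b, was called higher in tuft cells (2.61 ± 0.69), EECs (4.27 ± 0.69) and enterocytes, where background made up 78.0% of it. Celsr3 and Prickle2 were called higher in the same 3 types, and the receptor Ror1 in enterocytes alone (2.36 ± 0.52, edgeR adjusted p = 2.62e-04). Nuclear receptors of family 2 (11 genes) had 2 called lower in tuft cells (4.24% of all genes), 4 in enterocytes (11.5%) and 3 in EECs (9.13%). None was called higher. Among those lower were Rxra in all 3 types (-1.29 ± 0.30, -0.99 ± 0.30 and -1.48 ± 0.42), Rxrb in enterocytes and EECs, and Nr2f2 and Nr2f6 in enterocytes. Of the other Rbms genes, Rbms1 fell in SecPDG (-1.76 ± 0.34, edgeR adjusted p = 1.75e-04) and tuft cells (-1.33 ± 0.32), and Rbms2 in enterocytes (-1.34 ± 0.31).

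**Figure D5:**
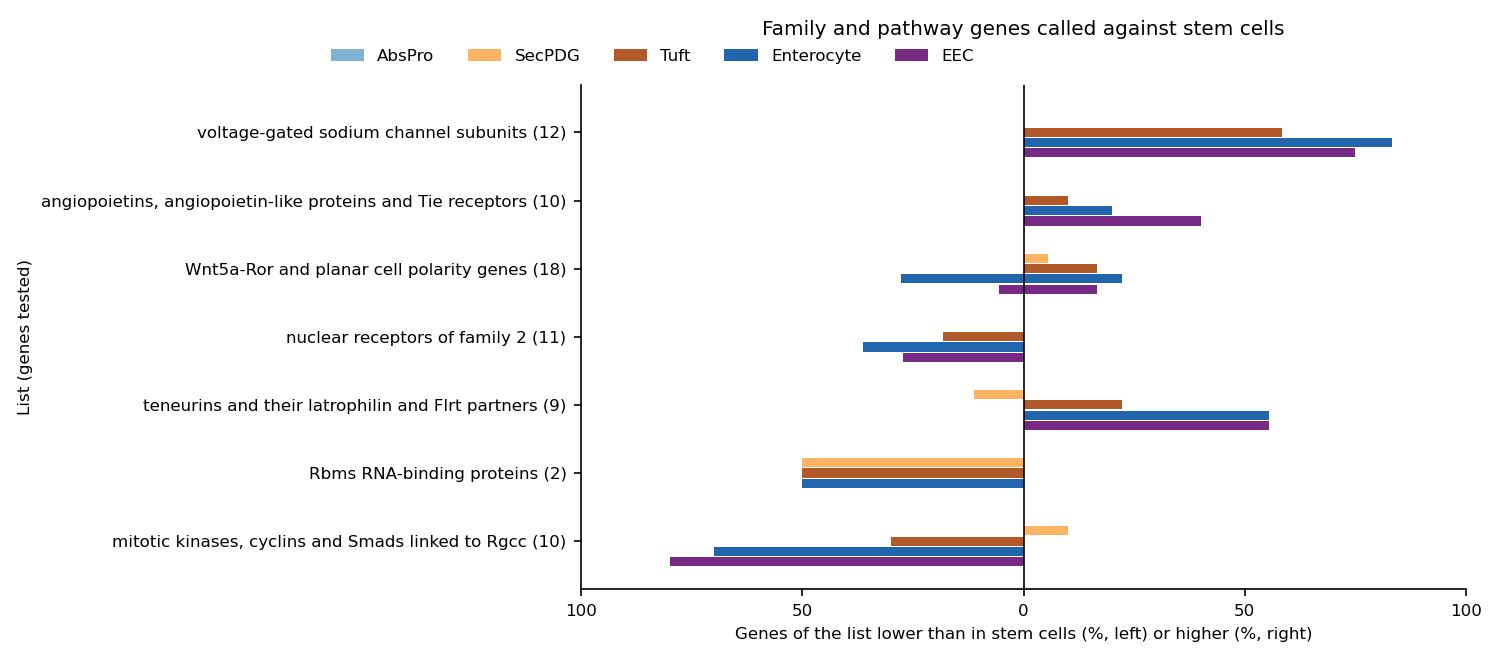
Share of the genes of 7 family and pathway lists called lower (left) or higher (right) than in stem cells, by cell type, with the number of genes tested in brackets. No gene was called in AbsPro. The sodium channel list reaches to the right in all 3 mature types and the cell cycle list to the left.

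The share of the distal polyadenylation site, a fraction estimated by the authors from read coverage, was used for Rgcc in stem cells and SecPDG. It was 1, 0.76 and 0.97 in the 3 stem cell columns (0.91 ± 0.13) and 0.54, 0.72, 0.52 and 0.81 in the 4 SecPDG columns (0.65 ± 0.14). The highest value of SecPDG lay above the lowest of stem cells. The contrast is one that chose the gene, so no test is given, and the columns cannot be tied to single libraries of the gene counts.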

How the data were processed

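The authors aligned reads of sorted mouse colon cells to the mm10 genome and counted them per gene, and the deposited gene counts are whole and not normalized. The submitters' processing notes list STAR 2.5.2a, SAMtools 1.3 and HTSeq 0.6.1p1. The 5 rows that name no gene were left out of library sizes. The 22 libraries were grouped by their labels and fitted together in edgeR 4.0.16 (R 4.3.3; TMM, filterByExpr, quasi-likelihood F test, cell type as the only term), which was also tested on simulated data. Normalized counts are counts scaled by TMM library sizes. DESeq2 1.42.0, RLE size factors, library totals, no filter on low counts, no minimum mean, a threshold of 0.05, a replicate block, a fit of the 2 cell types alone, background taken off (also from olfactory receptor genes alone) and leaving out each library were alternatives. The older (legacy) quasi-likelihood method of edgeR was added after seeing the data. The distal polyadenylation share is a deposited fraction that the authors computed with DaPars, and its other tables and the columns of the authors' own comparisons (differences and p-values) were not used. Members and lists were chosen with earlier results of these data known. Genes named are the 7 members, the 3 most correlated with each among genes averaging at least 50 normalized counts, and up to 4 called genes a list by smallest adjusted p. Genes named beyond that to spell out a count of 5 or fewer were chosen after their values were seen. Exon lengths are those of GENCODE M21, found for 24045 genes. Each library totalled 4122122 to 22462518 gene counts, which sets its counting error. By the study's methods, replicates came from separate mice or pools of mice and from separate sorts.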

Additional observations from a re-analysis of the deposited data

Results flagged for a closer look

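Rgcc in Tuft 5, at 557 normalized counts, stood far from the other 4 tuft libraries, at 202 to 235. Of 21 groups of 4 or 5 libraries examined for the 7 genes it was the only one with such a gap, and chance gives about 1 in 20. Tuft 5 also had the least background of the tuft libraries (1.59 reads per kilobase) and the smallest share of reads on no gene feature (43.9%). Its summed enteroendocrine (29048 normalized counts), absorptive (17171) and goblet and deep crypt secretory markers (1253740.0) were the highest of the tuft libraries. Its summed stem cell (17759) and tuft markers (41329) lay within the range of the other tuft libraries. The part of these traits in the Rgcc level was not tested. Without Tuft 5, Rgcc in tuft cells was no longer called over enterocytes (edgeR adjusted p = 0.0639) or over EECs (0.024).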

How the results depend on the processing

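Counts of the 7 genes called moved with several settings. In AbsPro against stem cells 7 became 3 with DESeq2 and 0 with the legacy method, in SecPDG 6 became 2 and 2, and in tuft cells 5 became 2 and 2, with 3 under RLE size factors and 3 under library totals. In enterocytes 5 became 3 with DESeq2, and in EECs 3 became 5 at an adjusted p under 0.05 and 1 in a fit of the 2 cell types. Between tuft cells and enterocytes 2 became 0 with DESeq2, 0 with RLE, 0 with totals and 1 with the legacy method. Between tuft cells and EECs 2 became 1 with totals, 1 with the replicate block, 1 with only the 2 types and 1 with the legacy method, and between enterocytes and EECs 1 with totals, 1 with only the 2 types and 1 with the legacy method. Of the 72 list genes, 0 called in AbsPro became 2 with DESeq2 and 1 each with RLE, totals and only the 2 types. In SecPDG 4 became 8 at 0.05, 7 with DESeq2, 12 with totals, 10 with only the 2 types and 2 with the legacy method. In tuft cells 19 became 29 at 0.05, 11 with background taken off and 9 with the legacy method, in enterocytes 38 became 24 with the legacy method, and in EECs 33 became 13 with only the 2 types. The cause of these moves was not tested, beyond the fewer samples of a fit of 2 types.

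Leaving out 1 library at a time gave 1 to 7 of the 7 genes in AbsPro (1 without AbsPro 3, 3 without Stem 1 or AbsPro 1, 4 without Stem 3 or AbsPro 2), 5 to 7 for SecPDG, 3 to 5 for tuft cells (3 without Stem 2 or Tuft 4), 5 to 6 in enterocytes and 2 to 5 in EECs (5 without EEC 1). It gave 1 to 3 between tuft cells and enterocytes (1 without Tuft 1, Tuft 5 or Enterocyte 2), 1 to 3 between tuft cells and EECs (1 without Tuft 5) and 1 to 2 between enterocytes and EECs (1 without Enterocyte 4, Enterocyte 5 or EEC 1). For the list genes it gave 0 to 1 for AbsPro, 2 to 8 for SecPDG, 8 to 26 for tuft cells, 30 to 40 for enterocytes and 22 to 38 for EECs. Without 1 EEC library the other is assumed to vary like the other groups.

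Directions turned for Kif26b in EECs against stem cells (0.65 with DESeq2, 0.19 with RLE), Kif26b in tuft cells over enterocytes (0.55 with background taken off) and Scn2b in tuft cells over EECs (-0.034 with DESeq2). Leaving out 1 library turned others, given as ranges over the libraries. Against stem cells the log2 fold change of Tenm4 in tuft cells ran from -0.59 to 0.019 and of Rbms3 from -0.64 to 0.16 (both above 0 without Stem 1), and that of Kif26b in EECs from -3.76 to 0.45 (above 0 without EEC 2). In tuft cells over EECs the ranges were -0.033 to 4.70 for Scn2b (lowest without EEC 2), -1.97 to 2.21 for Kif26b (above 0 without EEC 1) and -1.30 to 2.05 for Nr2e3 (above 0 without EEC 1, and at 0.0046 without Tuft 4). In enterocytes over EECs they were -0.23 to 9.41 for Rgcc (below 0 without EEC 2), -1.67 to 2.93 for Scn2b, -1.56 to 2.49 for Kif26b and -1.996 to 1.21 for Nr2e3 (the last 3 above 0 without EEC 1).

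Deviations of same-numbered libraries from their group means had a median correlation of 0.000159 (44 pairs, -0.396 to 0.503, 14 above 0.1). The highest were 0.503 for Tuft 5 with Enterocyte 5 and 0.430 for SecPDG 2 with Tuft 2. Libraries of unlike numbers were not compared, so these values cannot decide whether the numbers pair libraries. With the replicate block 7, 7, 5, 5 and 3 of the 7 genes were called in AbsPro, SecPDG, tuft cells, enterocytes and EECs, and 3, 1 and 2 in the 3 mature comparisons. EEC values rest on 2 libraries, of which EEC 1 had 4122122 counts, 89.9% of reads on no gene feature and 12.4 background reads per kilobase.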
